A study of Mus musculus with 6 samples.

Results

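The cyclic AMP phosphodiesterases are the enzymes that break down cyclic AMP, and 10 genes of this group were examined in mouse embryonic fibroblasts with and without Stc1. The genes were Pde8b, Pde8a, Pde7a, Pde7b, Pde4a, Pde4b, Pde4d, Pde3a, Pde3b and Pde10a. They were matched by gene name, which gave 13 of the 39495 loci in the files: 1 locus for each gene, and 3 more that carry the name of Pde8a, Pde3a or Pde7b but lie on the other strand. All 10 gene loci passed the filter on low counts, which 15673 loci passed in all. The group was selected on the knockout and wild-type fragment counts and FPKM values of these same libraries, in which Pde8b was already seen to be lower in knockout cells. The knockout and wild-type values of the 10 genes are therefore given as a description, and no test of these genes is read as support.

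Embryonic fibroblasts are primary cells grown out of mouse embryos. There were 3 Stc1 knockout libraries (STC1-/- KO) and 3 wild-type libraries (STC1+/+ WT), all labelled as C57BL/6, with no age, dose or treatment given. Stc1 encodes stanniocalcin-1, a secreted glycoprotein. All cultures were grown in DMEM with 10% foetal calf serum, and polyadenylated RNA was sequenced with a stranded kit. No label tells if separate embryos or cultures stand behind the libraries, so spreads and p-values cover these libraries only.

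Cyclic AMP is made by adenylyl cyclases when hormones act on receptors coupled to the stimulatory G protein. It activates protein kinase A and the exchange factor Epac, and phosphodiesterases end the signal. The PDE4, PDE7 and PDE8 families act on cyclic AMP only. The PDE3 family also binds cyclic GMP, which inhibits it, and PDE10 splits both nucleotides. In fibroblasts, cyclic AMP is known to restrain proliferation and the turn towards a contractile, matrix-producing state.

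The libraries held 21271933, 37007512 and 43503854 fragments on named loci for knockout replicates 1 to 3, and 71069138, 42261189 and 50863378 for wild-type replicates 1 to 3. Stc1 had 6, 0 and 0 fragments in the knockout libraries, where a count of 0 allows up to 3, against 2245, 291 and 368 in the wild-type libraries. The 9 of 10 listed fibroblast markers that could be used were present in every library and summed to 5537, 9028 and 8686 CPM in knockout replicates 1 to 3, against 11061, 31091 and 11937 CPM in wild-type replicates 1 to 3. The markers did not all run the same way, as Col1a1 was at 829, 2080 and 2318 CPM in knockout libraries, against 3111, 11994 and 3408 CPM in wild-type libraries, and Dcn at 1459, 1395 and 430 CPM in knockout libraries, against 475, 216 and 797 CPM in wild-type libraries. CPM here are fragment counts relative to library size, scaled by the trimmed mean of M-values (TMM). Macrophage markers set the libraries apart. Their sum over the 15 of 17 listed genes that could be used was 1311, 484 and 528 CPM in knockout replicates 1 to 3, and 402, 1523 and 11211 CPM in wild-type replicates 1 to 3. C1qa, a defining gene of that list, was at 2.91, 0.188 and 0.377 CPM among knockouts, against 0.255, 90.5 and 810 CPM among wild types. Emr1, another, was at 168, 12.9 and 22.3 CPM in knockout libraries, against 1.6, 74.7 and 972 CPM in wild-type libraries, so that knockout replicate 1 was below wild-type replicate 2 by C1qa and above it by Emr1. Libraries with the most or fewest macrophage markers are named below by the sum. Wild-type replicate 1 lay nearest to the knockout mean of the 3 wild-type libraries for 63% of the loci present in every library, and for 6 of the 10 phosphodiesterase genes. In bulk RNA, fewer cells of a type and less RNA per cell cannot be told apart.

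RefSeq start sites are listed for 7 of the 10 genes in the promoter table used (Pde8b, Pde8a, Pde7b, Pde4a, Pde4b, Pde4d and Pde10a), 17 start sites in all. Shown here are the 250 bases before a start site for the 2 genes of the PDE8 family, which had the lowest ratios of knockout to wild type apart from Pde3b, and for Pde4b, which had the highest level of the 10 (GRCm38.p6, written along the gene's own strand). Capitals mark the core of the cyclic AMP response element, TGACG or its reverse complement CGTCA.
Pde8b, upstream start, minus strand, chr13:95250337-95250586: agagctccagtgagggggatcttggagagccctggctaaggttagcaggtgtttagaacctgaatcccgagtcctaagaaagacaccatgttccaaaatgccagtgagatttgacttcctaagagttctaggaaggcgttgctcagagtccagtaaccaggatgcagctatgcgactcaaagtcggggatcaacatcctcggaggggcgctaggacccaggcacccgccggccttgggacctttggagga
Pde8b, downstream start, minus strand, chr13:95223093-95223342: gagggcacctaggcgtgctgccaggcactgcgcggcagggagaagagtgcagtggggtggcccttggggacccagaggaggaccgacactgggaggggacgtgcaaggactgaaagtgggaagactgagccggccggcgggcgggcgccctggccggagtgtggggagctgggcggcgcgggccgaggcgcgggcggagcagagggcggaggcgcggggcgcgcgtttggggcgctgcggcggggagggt
Pde8a, plus strand, chr7:81213015-81213264: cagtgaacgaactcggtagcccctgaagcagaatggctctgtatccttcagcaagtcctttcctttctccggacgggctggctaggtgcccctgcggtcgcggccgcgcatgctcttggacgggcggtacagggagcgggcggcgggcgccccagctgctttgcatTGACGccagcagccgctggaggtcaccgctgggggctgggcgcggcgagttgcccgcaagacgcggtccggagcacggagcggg
Pde4b, plus strand, chr4:102421305-102421554: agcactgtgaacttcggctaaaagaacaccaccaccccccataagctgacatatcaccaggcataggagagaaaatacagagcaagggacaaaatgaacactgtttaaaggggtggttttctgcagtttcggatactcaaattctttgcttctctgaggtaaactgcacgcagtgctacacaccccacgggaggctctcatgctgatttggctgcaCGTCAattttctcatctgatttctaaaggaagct
The Pde8b windows shown hold no such core, and their GC content is 54.4% at the upstream and 75.6% at the downstream start. The core lies 84 bases before the Pde8a start and 34 bases before the Pde4b start shown, where the first base of the match is counted. The other 3 Pde4b start sites in the table have no core in their windows. Of the 17 windows, 3 hold the core on either strand, and so do 17.8% of all 32851 windows of the same length. The full palindrome TGACGTCA, which contains the core, occurs in 0 of the 17 and in 1.55% of all windows. A TATAAA box, on either strand, occurs in 0 of the 17 and in 12.4% of all windows. Pde8b has more start sites among the 17 than the 2 shown, and some of its windows overlap each other. The 17 windows are therefore not separate promoters. A match is a run of letters, not a measured binding site.

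Levels were compared between genes in FPKM, the authors' fragments per kilobase of transcript, scaled to sequencing depth. Pde4b had the highest mean over the 6 libraries, 15.7 ± 6.68 FPKM, and was the highest gene in 4 of the libraries. Pde8a followed at 9.11 ± 4.16 FPKM and was the highest gene in wild-type replicates 2 and 3. Pde7a (6.99 ± 1.76), Pde4a (6.86 ± 1.18), Pde4d (6.60 ± 1.70), Pde7b (5.58 ± 3.10), Pde10a (5.19 ± 1.29) and Pde8b (4.96 ± 2.41 FPKM) lay close together. Pde3b at 2.74 ± 2.20 and Pde3a at 1.41 ± 0.479 FPKM were the lowest (SD, n = 6 libraries of both genotypes throughout). The locus on the other strand of Pde3a took 37.5% to 46.3% of the fragments of that pair. The place of Pde3a and the PDE3 share given below therefore depend on how those fragments were divided. Of neighbours in this order, Pde8b stood above Pde3b in 6 of 6 libraries, and every other pair changed places in at least 1 library. Summed over the 10 genes, the level was 64.2 ± 8.18 FPKM in knockout cells and 66.1 ± 3.66 FPKM in wild-type cells (SD, n = 3 each), so the sums differed by less than their spread.

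The families made up that sum in different shares. The PDE8 family held 14%, 13.5% and 15.2% of the summed FPKM in knockout replicates 1 to 3, and 19%, 32.5% and 35.9% in wild-type replicates 1 to 3. The 3 knockout shares lay below all 3 wild-type shares. This share includes Pde8b, whose values rest on a division of fragments with Wdr41 that is described below. The genes were chosen with these values known, so nothing is read from shares that do not overlap. Among single loci, the genotypes did not overlap in CPM for 10.6%. The PDE4 family held 56.9%, 53.2% and 43.6% in knockout and 48.3%, 31.9% and 33% in wild-type libraries, and those ranges overlapped. The PDE10 share was 8.96%, 9.42% and 9.87% in knockout libraries, against 8.37%, 5.69% and 5.5% in wild-type libraries, with every knockout library above every wild-type one. The FPKM of Pde10a itself overlapped, at 5.41 to 6.55 in knockout libraries and 5.86 in wild-type replicate 1. The PDE7 and PDE3 shares overlapped between the genotypes. The shares of a library add up to its whole sum, so they are not independent of each other.

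**Figure D1:**
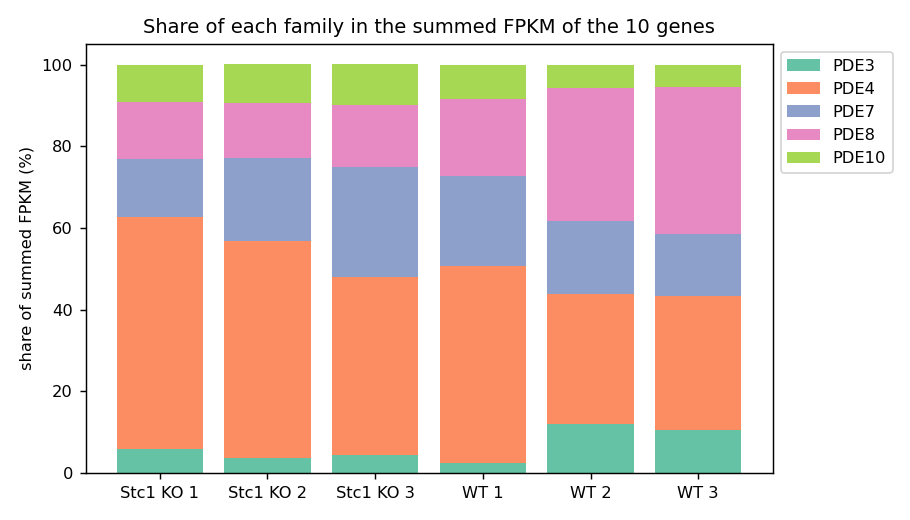
Share of each phosphodiesterase family in the summed FPKM of the 10 genes (y axis, percent), with 1 stacked bar for each Stc1 knockout (KO) and wild-type (WT) library. PDE8 takes 13.5% to 15.2% in the knockout bars and 19% to 35.9% in the wild-type bars. It includes Pde8b, whose fragments were divided with the overlapping locus Wdr41.

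Of the 10 genes, Pde8b had knockout and wild-type values that did not overlap on either scale. It lies at chr13:95021671-95250336 on the minus strand (mm10; locus XLOC_009425), where GENCODE M21 lists a protein-coding gene with 14 transcripts. PDE8B is a cyclic AMP-specific enzyme of high affinity, known best from adrenal and thyroid cells. Pde8b stood at 8.92, 9.95 and 9.56 CPM in knockout replicates 1 to 3, and at 20.2, 26.1 and 23.7 CPM in wild-type replicates 1 to 3. The genotypes did not overlap, and the spread within each was narrow. The fit gave a log2 fold change of -1.30 (standard error 0.18). On the FPKM scale the values were 2.49, 3.42 and 2.67 in knockout and 6.05, 8.06 and 7.08 in wild-type libraries. Over the 3 libraries with the fewest macrophage markers, Pde8b was at 9.95 and 9.56 CPM in knockout replicates 2 and 3, and at 20.2 CPM in wild-type replicate 1. The log2 fold change in those libraries was -1.05.

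The Pde8b values rest on a division of shared fragments. The authors' files mark the locus FAIL, the status Cuffdiff gives where an estimate could not be completed, in all 6 libraries. The same mark in all 6 libraries was carried by 116 loci in all. Among these is Wdr41 (chr13:94976344-95026421, plus strand), a gene that faces Pde8b and whose product acts with C9orf72 at lysosomes. In the files the end exons of both loci cover each other from 95021671 to 95026229, or 4559 bases. In GENCODE M21 the genes end 1139 bases apart. Neither locus had a whole count in any library, while their sum was whole, within 0.02, in 6 of 6. Of the shared sum, Pde8b received 22.1%, 26.2% and 24.2% in knockout libraries and 39.6%, 44.3% and 28.9% in wild-type libraries.

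The sum does not depend on that division. It was 40.4, 38.1 and 39.5 CPM in knockout replicates 1 to 3, and 51, 59 and 81.9 CPM in wild-type replicates 1 to 3. The highest knockout sum was under the lowest wild-type sum. For the sum, the log2 fold change came to -0.69 (standard error 0.20). Wdr41 as assigned stood at 31.5, 28.1 and 29.9 CPM among knockouts, against 30.8, 32.8 and 58.3 CPM among wild types, where the genotypes overlapped. Wild-type replicate 3, with the most macrophage markers, had the highest Wdr41 and the highest sum, and wild-type replicate 2 had the highest Pde8b. The part of macrophages in these levels was not tested.

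**Figure D2:**
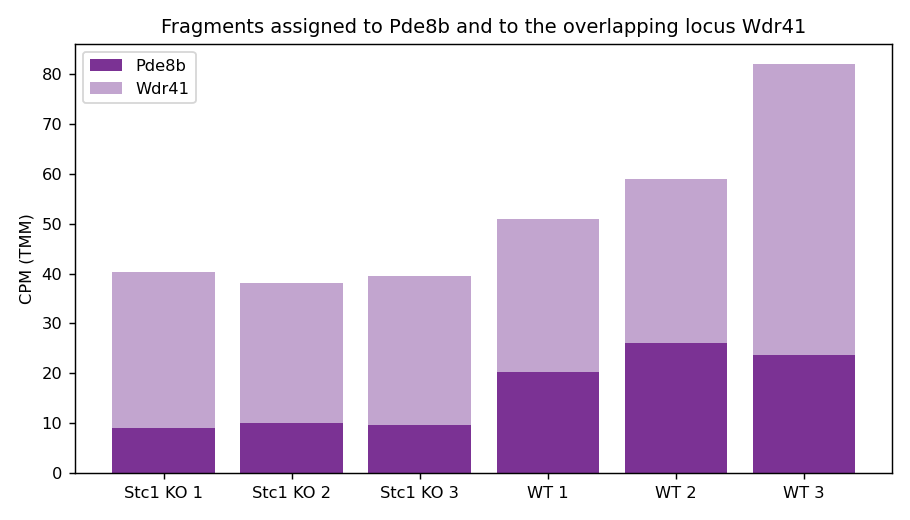
CPM assigned to Pde8b (dark) and to the overlapping locus Wdr41 (light) in each Stc1 knockout (KO) and wild-type (WT) library, stacked so that bar height is their sum. The sums run from 38.1 to 40.4 CPM in knockout and from 51 to 81.9 CPM in wild-type libraries, and the dark part is smaller in each knockout bar.

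Pde8a, the other gene of the family, also encodes a cyclic AMP-specific enzyme of high affinity. It lies at chr7:81213596-81334533 on the plus strand. Pde8a stood at 33, 26.1 and 25.6 CPM in knockout replicates 1 to 3, against 32.4, 59.4 and 65.6 CPM in wild-type replicates 1 to 3. Wild-type replicate 1 stood with the knockout libraries and just under the highest of them. On the FPKM scale the order of that pair turned, with at most 7.11 in knockout and at least 7.22 in wild-type libraries. The log2 fold change was -0.90 (standard error 0.29), and -0.33 over the 3 libraries with the fewest macrophage markers. The locus on the other strand of Pde8a (chr7:81327474-81334504) took 1.24% to 3.09% of the fragments of the pair, and the sum of both had a log2 fold change of -0.88.

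**Figure D3:**
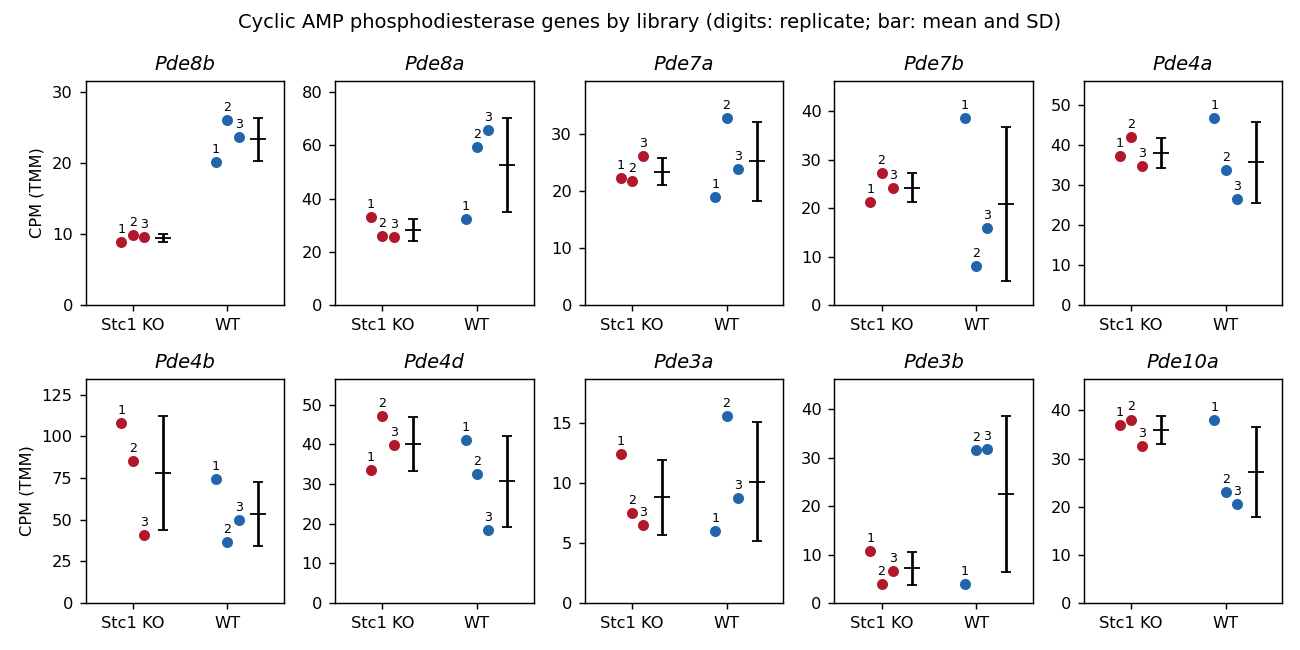
CPM (y axis, from 0) of each of the 10 genes in the Stc1 knockout (KO, red, left) and wild-type (WT, blue, right) libraries; digits name the replicate and bars give the mean and SD (n = 3 each). Pde8b is the gene whose genotypes do not overlap, at 8.92 to 9.95 CPM among knockouts, against 20.2 to 26.1 CPM among wild types.

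The PDE7 genes encode high-affinity cyclic AMP enzymes, of which PDE7A is known from T cells and PDE7B from brain. Pde7a (chr3:19221741-19311322, minus strand) stood at 22.3, 21.7 and 26.1 CPM among knockouts, against 19, 32.7 and 23.9 CPM among wild types. Its log2 fold change was -0.11 (standard error 0.24), smaller than its standard error, and the genotypes overlapped. Pde7b (chr10:20397083-20725145, minus strand) was even among knockout libraries, at 21.2, 27.3 and 24.2 CPM, and uneven among wild-type ones, at 38.5, 8.01 and 16 CPM. The knockout values lay inside the wild-type range, and the log2 fold change was 0.22 (standard error 0.55). Wild-type replicate 1, with the fewest macrophage markers, had the highest Pde7b. The locus on the other strand of Pde7b held 0 fragments in every library, which allows up to 3 in each.

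The PDE4 genes encode the cyclic AMP enzymes inhibited by rolipram, and each makes long and short forms from several start sites that a count over the whole locus cannot separate. Pde4b (chr4:102087543-102607259, plus strand), the form linked to inflammatory signalling in leukocytes, stood at 108, 85.4 and 41 CPM among knockouts, against 74.4, 36.5 and 49.7 CPM among wild types. The genotypes overlapped, with a log2 fold change of 0.54 (standard error 0.42). The highest library, knockout replicate 1, was the knockout library with the most macrophage markers, and wild-type replicate 3, which had the most of all, was at 49.7 CPM. The part of macrophages in the Pde4b level was not tested. Pde4d (chr13:108449948-109955963, plus strand), which binds beta-arrestin at beta-adrenergic receptors, stood at 33.4, 47.1 and 39.7 CPM among knockouts, against 41.1, 32.6 and 18.4 CPM among wild types. Pde4a (chr9:21164603-21213261, plus strand) stood at 37.2, 41.9 and 34.7 CPM among knockouts, against 46.6, 33.8 and 26.5 CPM among wild types. Their log2 fold changes were 0.38 (standard error 0.32) for Pde4d and 0.09 (standard error 0.24) for Pde4a, and both genes overlapped between the genotypes.

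The PDE3 genes encode the enzymes inhibited by cyclic GMP, of which PDE3A is known from heart, platelets and oocytes and PDE3B from fat cells and liver, where it carries part of the insulin effect on cyclic AMP. Pde3b (chr7:114415281-114539251, plus strand) had the lowest fitted ratio of the 10. It stood at 10.8, 3.94 and 6.68 CPM in knockout replicates 1 to 3, and at 3.88, 31.7 and 31.9 CPM in wild-type replicates 1 to 3. Wild-type replicates 2 and 3 were high, while wild-type replicate 1 was the lowest of all 6 libraries. The log2 fold change was -1.66 (standard error 0.82), and over the 3 libraries with the fewest macrophage markers it was 0.45. Wild-type replicates 2 and 3 had nearly equal Pde3b, while their macrophage marker sums were 1523 and 11211 CPM; the part of those cells in the Pde3b level was not tested, nor was that of adipocytes. Adipocyte markers summed to 37.7, 22.4 and 21.1 CPM among knockouts, against 16.2, 13.5 and 98 CPM among wild types, and Adipoq was at 0 in 4 of the 6. Fabp4 and Pparg held nearly all of that sum, at 78.3 and 19.3 CPM in wild-type replicate 3. Plin1, Lep, Cidec and Cfd were at 0.166 CPM or less in every library.

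Pde3a (chr6:141249069-141506332, plus strand) stood at 12.4, 7.51 and 6.52 CPM among knockouts, against 6, 15.6 and 8.79 CPM among wild types, with a log2 fold change of -0.20 (standard error 0.44). A minus-strand locus named Pde3a (chr6:141498649-141505029) took 46.3%, 40.5% and 41.6% of the fragments of the pair in knockout libraries, and 37.5%, 37.8% and 39.1% in wild-type libraries. Of the exon bases of that locus, 99.9% lie within exons of Pde3a itself. The sum of both was whole in 6 of 6 libraries, and the reads of the strands cannot be told apart in these counts. Summed, the pair stood at 23.1, 12.6 and 11.2 CPM among knockouts, against 9.6, 25.1 and 14.4 CPM among wild types, with a log2 fold change of -0.07 (standard error 0.45).

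PDE10A is known as the dual enzyme of striatal neurons. Pde10a (chr17:8525229-8986648, plus strand) stood at 37, 38.1 and 32.6 CPM among knockouts, against 38, 23.1 and 20.5 CPM among wild types. Wild-type replicate 1 lay within the knockout range and the other wild-type libraries below it. The log2 fold change was 0.40 (standard error 0.26), and -0.11 over the 3 libraries with the fewest macrophage markers. The 5 of 7 listed neural markers that could be used summed to 1.97 CPM or less in every library. The part of neural cells in the Pde10a level was not tested.

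Across all loci, edgeR's quasi-likelihood test with Benjamini-Hochberg adjustment called 0 of 15673 at an adjusted p under 0.05 (0%) and 0 of the 10 genes. Stc1, the deleted gene, was not called either (log2 fold change -7.72, edgeR adjusted p = 0.763). A count of 0 calls therefore does not show that levels were alike. DESeq2 called 61 of 18613 loci (0.328%; 0.156% higher and 0.172% lower in knockout cells) and 1 of the 10 genes, Pde8b, which was lower. At an unadjusted p under 0.05, edgeR had 607 loci (3.87%; 1.6% higher and 2.27% lower) and 2 of the 10 genes, Pde8b and Pde8a, both lower. Leaving out 1 library at a time, that count of the 10 genes was 1 or 2, except for 5 without wild-type replicate 1. The genotypes did not overlap in CPM for 10.6% of all loci (5.18% higher and 5.44% lower) and for 1 of the 10 genes, Pde8b. The log2 fold changes of the 10 were positive for 5 and negative for 5, with a median of -0.01, against -0.05 over all loci tested. As the group was chosen with these values known, nothing is read from these counts. The ratio of the highest to the lowest library was larger among wild-type than among knockout libraries for 9 of the 10 genes, all but Pde4b, and for 81.4% of the 15485 loci above 0 in every library.

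**Figure D4:**
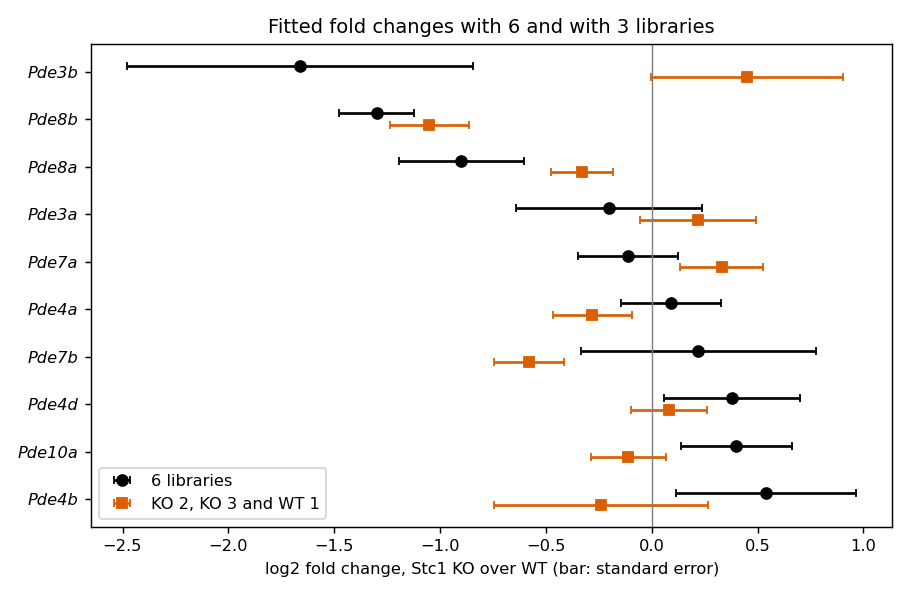
Fitted log2 fold change of Stc1 knockout over wild type for each gene (x axis; bars are standard errors), over all 6 libraries (black) and over knockout replicates 2 and 3 against wild-type replicate 1 (orange), the libraries with the fewest macrophage markers. Pde8b is at -1.30 and -1.05, and Pde3b at -1.66 and 0.45.

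Of the 10 genes, 3 have a row in the authors' deposited table, Pde4b, Pde4d and Pde3b, and Pde8b has none. The authors' deposited table gives Pde4b a mean of 18.7 FPKM in knockout and 12.7 FPKM in wild-type cells. For Pde4d the authors' deposited table gives 7.36 FPKM in knockout and 5.72 FPKM in wild-type cells. For Pde3b the authors' deposited table gives 1.4 FPKM in knockout and 3.91 FPKM in wild-type cells. In the authors' own test the p-values were 0.615 for Pde4b, 0.983 for Pde4d and 0.588 for Pde3b, and no q-value was under 0.05.

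The rest of the cyclic AMP pathway was examined with 125 other genes in 11 classes, of which 123 were found and 103 tested. edgeR called 0 of them higher and 0 lower (0% of all loci in either direction). DESeq2 called 2 higher, Nr4a2 and Areg, and 0 lower, beside 0.156% higher and 0.172% lower of all loci. At an unadjusted p under 0.05 edgeR had 10 of the 103, beside 3.87% of all loci, and the genotypes did not overlap for 14 of the 103, beside 10.6% of all loci. The median log2 fold change of the 103 was -0.10, with 47 positive and 56 negative, beside 6961 positive of all 15673 loci tested. These gene lists were chosen with earlier results of these data known, so nothing is read from these counts. For the genes named below, other than Gnas, Gnai1, Gnao1 and Abcc5, edgeR's adjusted p was 0.763, since the adjustment gives many loci the same value.

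On the side that makes cyclic AMP, 9 adenylyl cyclase genes were tested (3 positive, 6 negative; median -0.19). Adcy7, a cyclase known from haematopoietic cells, stood at 39.9, 20.1 and 16.4 CPM among knockouts, against 23.5, 61.2 and 211 CPM among wild types. Its 3 highest libraries were those with the highest macrophage marker sums, in the same order, and its log2 fold change was -1.96 (standard error 0.84). Whether macrophages contributed to the Adcy7 level was not tested. Adcy1 and Adcy6 had log2 fold changes of -0.52 and 0.37. The G protein subunits Gnas, Gnai1 and Gnao1 had 0.24, 0.24 and 0.26, and their edgeR adjusted p was 0.774 to 0.797. Among 14 receptors tested (9 positive, 5 negative), Ptger2, a prostaglandin E2 receptor coupled to cyclic AMP, stood at 6.15, 3.11 and 6.54 CPM among knockouts, against 1.97, 1.8 and 2.65 CPM among wild types. The genotypes did not overlap, and its log2 fold change was 1.30 (standard error 0.38). Vipr1 and Pth1r, receptors for vasoactive intestinal peptide and parathyroid hormone, had -1.40 and -0.65.

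On the side that reads cyclic AMP, 9 genes of protein kinase A subunits and inhibitors were tested (4 positive, 5 negative). Prkar2b, a regulatory subunit, stood at 92.9, 61.3 and 86.9 CPM among knockouts, against 49.9, 49.9 and 36.5 CPM among wild types, without overlap (log2 fold change 0.82, standard error 0.22). Pkia, an inhibitor of the kinase, stood at 4.83 ± 0.633 CPM among knockouts, against 7.65 ± 1.79 CPM among wild types (SD, n = 3 each). Pkib had -4.02 with a standard error of 2.04, and its highest library was wild-type replicate 3, at 24.7 CPM. The Epac genes Rapgef4 and Rapgef3 had log2 fold changes of 0.73 and 0.66, and the Popeye gene Bves -1.29. Of 14 anchoring proteins, Ezr stood at 70.5, 71.5 and 72.5 CPM among knockouts, against 59.8, 50.6 and 48.5 CPM among wild types, without overlap, while Akap9 and Akap6 had -0.38 and 0.67.

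Of the 8 genes of the CREB family and its coactivators, 7 were negative, with a median log2 fold change of -0.18. Of all 15673 loci tested, 6961 were positive. Crtc3, Creb1 and Atf1 had -0.26, -0.43 and -0.26. The 15 genes listed as CREB targets had a median of 0.36, with 10 positive and 5 negative, and many of them also answer to other signals. Nr4a2, an orphan nuclear receptor induced early after stimulation, stood at 50, 35.4 and 33.9 CPM among knockouts, against 22.1, 16.2 and 18.5 CPM among wild types. Its genotypes did not overlap, and the log2 fold change was 1.07 (standard error 0.22; DESeq2 adjusted p = 0.0262). Areg, a ligand of the EGF receptor, had a log2 fold change of 2.76 (standard error 0.68; DESeq2 adjusted p = 0.0162). Vgf, a secreted neuropeptide precursor, had -1.42, and its genotypes did not overlap in CPM.

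Abcc4, a pump that exports cyclic AMP from cells, stood at 95.6, 38.5 and 77.2 CPM among knockouts, against 30.3, 20.1 and 32.2 CPM among wild types. The genotypes did not overlap, and the log2 fold change was 1.35 (standard error 0.38). Abcc5, another exporter of cyclic nucleotides, had -0.14 (edgeR adjusted p = 0.845). Of the 8 other genes tested that carry a phosphodiesterase name, 4 were positive and 4 negative. They include enzymes that split cyclic GMP or both nucleotides. Pde5a, the cyclic GMP enzyme inhibited by sildenafil, stood at 8.84 ± 1.88 CPM among knockouts, against 14.2 ± 6.26 CPM among wild types (SD, n = 3 each). Pde2a and Pde6h had log2 fold changes of -0.48 and 0.84. With 6961 of all 15673 loci tested positive, 12 of 13 phosphodiesterase partners were negative, with a median of -0.23. The lowest p among these belonged to Arrb2, a beta-arrestin, Pik3r6 and Pik3cg, subunits of a leukocyte phosphoinositide kinase, at -2.86, -3.89 and -2.89. Wild-type replicate 3 held their highest values, 201, 11.8 and 108 CPM, and wild-type replicate 1, with the fewest macrophage markers, the lowest, 5.75, 0 and 0.34 CPM. Whether macrophages contributed to these levels was not tested.

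**Figure D5:**
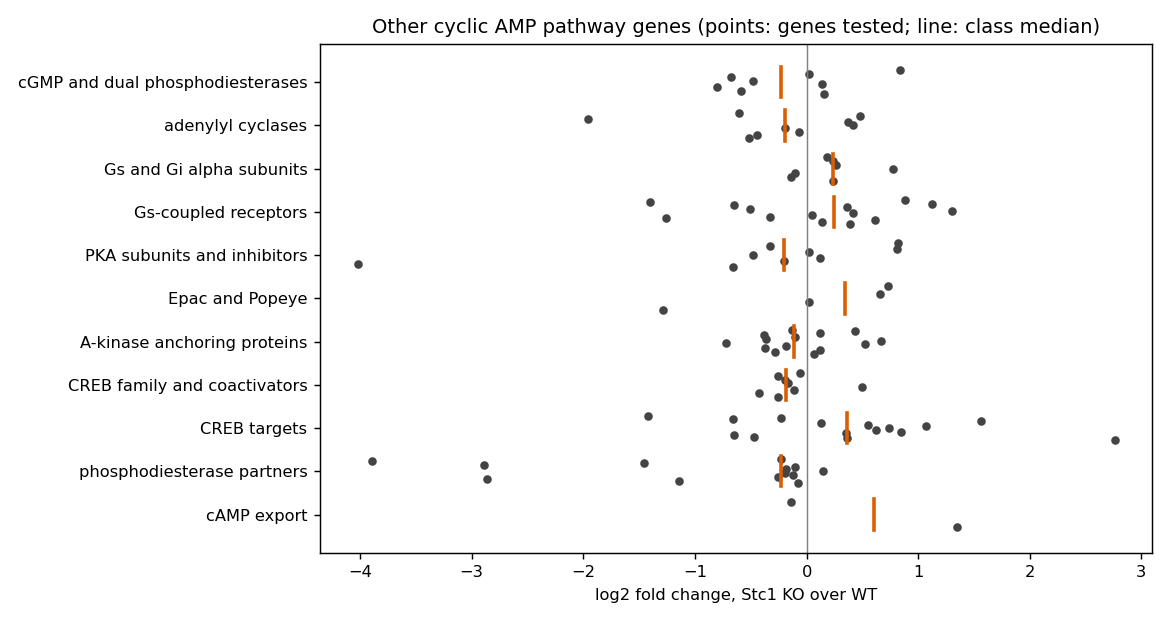
Log2 fold change of Stc1 knockout over wild type (x axis) for each of the 103 tested genes of the wider pathway, 1 row per class; lines give class medians. Class medians run from -0.23 to 0.61, and the lowest points are genes with their highest level in wild-type replicate 3.

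Around Pde8b, 27 named loci lay within 1 Mb, of which 14 were tested and edgeR called 0 (0% of all loci). Their log2 fold changes were positive for 4 and negative for 10, with a median of -0.16. Gm16243, inside the Pde8b locus, had 0 fragments in every library, which allows up to 3 in each. Besides Wdr41, the nearest loci with a mean of at least 1 CPM were Zbed3, at 74.9 kb, and Aggf1, at 100 kb, with log2 fold changes of -0.24 and -0.07 (edgeR adjusted p = 0.802 and 0.917). Iqgap2, at 377 kb, had -1.26 (standard error 0.56; edgeR adjusted p = 0.763), with 8.64, 12.8 and 17.9 CPM among knockouts, against 15.1, 22.1 and 57.4 CPM among wild types. The other loci with that mean were Lhfpl2, Ap3b1, Tbca, Scamp1, Gm9776, F2rl1 and F2r, with log2 fold changes of 0.07, 0.07, -0.01, 0.40, -0.08, -0.59 and -0.33. In all 11 loci with that mean the genotypes overlapped in CPM, while Scamp1 did not overlap in FPKM. Of the 14 tested, 2 did not overlap in CPM, against 10.6% of all loci. Both carry the name Sv2c, were under 1 CPM in every library and had log2 fold changes of -3.08 and -1.21 (edgeR adjusted p = 0.763 for each), and are named after their values were seen. The plus-strand locus (chr13:95957786-95959589) lies inside the minus-strand one (chr13:95957786-96132577). Their counts were not whole, at 18.4 and 50.6 fragments in wild-type replicate 1, so they are not 2 independent loci.

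The loci whose pattern over the 6 libraries was most like a phosphodiesterase gene were sought among 11709 loci (mean log2 CPM 2 or more), by Pearson correlation of log2 CPM. For Pde8b they were Plxna4 (0.992), Zfp959 (0.984), the locus of Zfp934, Zfp935 and their neighbours (0.981), Ctu1 (0.981) and BC002059 (0.974), and 83 loci reached 0.9. For Pde4b they were Ppp1r15a (0.988), Frzb (0.986), Ctsk (0.984), Rhbdd1 (0.98) and Polr1d (0.979), with 101 loci at 0.9 or more. For Pde10a they were Fgf7 (0.996), Il1rap (0.996), Mfsd7c (0.994), Micall2 (0.994) and Chrna7 (0.994), with 587 loci at 0.9 or more. These values are a description over 6 points that share their libraries and depths.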

How the data were processed

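Messenger RNA of 3 Stc1 knockout and 3 wild-type fibroblast libraries was measured. The submitters' processing notes name mm10, Cuffdiff 2.0.1, TopHat2 2.0.6 and CASAVA 1.8.2, without their roles. Per the file headers, the authors' files hold an estimated count of fragments (an expected count), an FPKM value and a status per locus. Of the values above 0, 18.8% differ from a whole number by over 0.02, so counts were rounded before testing. The authors' deposited table adds mean FPKM, log2 fold changes, p-values and q-values.

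Of 39495 loci, 2667 without a name (0.507% to 0.555% of fragments) and 16 marked HIDATA were left out; the 1151 that any library marks FAIL stayed in. The main test was edgeR 4.0.16 under R 4.3.3 (robust quasi-likelihood fit after filterByExpr, TMM scaling, Benjamini-Hochberg adjusted p under 0.05), and alternatives used DESeq2 1.42.0 and limma 3.58.1 on voom weights or on log2(FPKM + 1) and log2(FPKM + 0.1). The common biological coefficient of variation was 0.467. Standard errors of edgeR log2 fold changes were derived as the absolute log2 fold change divided by the square root of the test's F statistic. Other scalings, other filters and leaving out each library were also tried. The edgeR fit was tested on simulated data. Members and gene lists were chosen with earlier results of these data known. Named were all members, up to 3 tested genes per pathway class by p, neighbours of Pde8b with a mean of at least 1 CPM, and the 5 most similar loci. The floors given for counts of 0 cover counting error only, while SDs and standard errors also hold the spread between libraries. Promoter sequences come from RefSeq (GRCm38.p6), and annotation from GENCODE M21, both on the build of the files.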

Additional observations from a re-analysis of the deposited data

How the results depend on the processing

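No paired analysis was possible because the replicate numbers used here follow accession order, and nothing in the labels ties a knockout library to a wild-type one. DESeq2 called 61 loci over all genes, against 0 in edgeR, among them 1 of the 10 phosphodiesterases and 2 of the other pathway genes; limma on log2(FPKM + 0.1) called 1 locus. At an unadjusted p under 0.05, edgeR had 607 loci with all libraries and 2939 without wild-type replicate 1. The cause was not tested. Every other setting, leaving out each library included (0 to 0 calls), called 0 in each of these sets, and no setting called a neighbour of Pde8b. Of 159 values of single phosphodiesterase genes under the alternatives, 145 kept the sign and the side of the threshold, 1 (Pde8b by DESeq2, log2 fold change -1.29) passed it and 13 changed sign, the cause of which was not tested. In the fit with overlapping loci summed, the values counted for Pde8b, Pde8a and Pde3a are those of the sums. Without wild-type replicate 2 the values were 0.14 for Pde7a, -0.16 for Pde7b and 0.26 for Pde3a. Without wild-type replicate 3, Pde4a was at -0.09. Leaving out each library in turn, Pde7a ran from -0.27 to 0.14, Pde7b from -0.16 to 1.02, Pde3a from -0.53 to 0.26 and Pde4a from -0.09 to 0.33. Values that kept their sign also moved: Pde4b ran from 0.24 without knockout replicate 1 to 0.86 without wild-type replicate 1, Pde4d from 0.12 without wild-type replicate 3 to 0.65 without wild-type replicate 1, and Pde10a from 0.23 without wild-type replicate 3 to 0.72 without wild-type replicate 1. Pde3a was at 0.01 on the log2(FPKM + 1) scale and at 0.02 on the log2(FPKM + 0.1) scale, both by limma. Chosen after seeing the data were fits without loci marked FAIL, where Pde8b has no value, with overlapping loci summed, and without the 3 libraries with the most macrophage markers, where the spread of the lone wild-type library was taken from the knockout libraries. In that last fit Pde7a was at 0.33, Pde7b at -0.58, Pde4a at -0.28, Pde4b at -0.24, Pde3a at 0.22, Pde3b at 0.45 and Pde10a at -0.11. Pde8b as assigned ran from -1.39 without wild-type replicate 1 to -1.05 without the 3 libraries with the most macrophage markers. Its sum with Wdr41, of which Wdr41 held the larger part in every library, was at -0.69. Pde8b was chosen with its lower knockout values known. All settings reuse the same libraries, and those for Pde8b as assigned reuse the same division of fragments, so the constant sign is not read as support. Depth was lowest in knockout replicate 1, where Pde8b rests on 190 estimated fragments.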
